A study of Rattus norvegicus with 6 samples.

Results

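The kinesin and dynein motor genes are the genes whose symbol is Kif or Klc followed by a digit, or starts with Dync or Dynl. The rule reads only names, and 50 of the 14506 genes with a symbol of their own on the array met that rule: 29 Kif genes for kinesin motor subunits, 4 Klc genes for kinesin light chains, and 17 Dync or Dynl genes for chains of cytoplasmic dynein. Each was read by 1 transcript cluster, a set of probes along one transcript. Rat primary motor neuron cultures from embryonic day 13.5 were kept for 2 days in vitro and then exposed for 2 h to 1 microM camptothecin, a poison of topoisomerase 1, or to an equal volume of its solvent DMSO. Each treatment had 3 arrays. The labels call these biological replicates without saying whether they came from separate cultures, so the p-values reflect only how far these 6 samples spread. The labels name no strain and no purification marker.

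Kinesins and dyneins are ATP-driven motors that walk on microtubules. In an axon most kinesins carry cargo outward to the terminal and cytoplasmic dynein carries it back to the cell body, and some Kif proteins instead build the mitotic spindle or shorten microtubules. Long motor axons depend on this traffic, and variants of KIF5A and DYNC1H1 cause human motor neuron and axon diseases.

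The deposited values are log2 expression, so a difference of 1 is a factor of 2. Array medians over 29214 clusters were 6.31 to 6.33 with camptothecin and 6.22 to 6.28 with DMSO. Arrays of the same treatment correlated at r = 0.992 to 0.995 over all clusters. Of 15 motor neuron markers 13 were measured, without Chat and Mnx1. Below the median brightness of all clusters were 6 of them, Isl1 included. By limma 3 rose (the filament genes Nefh, Nefm and Prph) and 1 fell (Foxp1), where 11.3% of all genes with 1 symbol rose and 9.35% fell. At an unadjusted p under 0.05 3 were higher and 5 lower, and the median change of the 13 was -0.11. The 18 measured markers of dividing cells, with kinesins left out, were all above that median brightness, with changes from -0.21 to 0.44. Only 2 of 10 progenitor and astroglia markers were below it. Of these 10, 1 fell (Pax6) and 0 rose by limma (2 higher at an unadjusted p under 0.05). Of 4 measured oligodendrocyte and Schwann cell markers 0 were below it, and 1 fell (Mbp) and 0 rose by limma (0 higher at an unadjusted p under 0.05). Of 8 spinal interneuron markers 5 fell (Slc6a5, Gad2, Slc17a6, Gad1 and Pax2) and 0 rose by limma (1 higher at an unadjusted p under 0.05). Of all genes with 1 symbol 9.35% fell and 11.3% rose. Slc32a1 (0.23), Lhx5 (0.26) and Lhx1 (0.10) went the other way and did not pass. The mean level of the 8 was 8.19 to 8.32 per array with camptothecin and 8.66 to 8.78 with DMSO. Their part in the motor gene results was not tested. In bulk RNA such as this, fewer cells of a type and less RNA per cell cannot be told apart.

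Of the 50 motor genes, 7 fell and 4 rose with camptothecin, and 39 did not pass the test (limma's moderated test, adjusted p under 0.05 over all clusters). The genes that fell were Kif20b, Kif23, Kif13b, Kif16b, Kif5b, Kif15 and Kif4a, and those that rose were Kif5a, Dynll2, Dynll1 and Dync1li2. That is 14% falling and 8% rising, 22% in all, beside 9.35%, 11.3% and 20.7% of all genes with 1 symbol. Over all clusters, named or not, 7.91% fell and 10.1% rose, 18% in all. The share of motor genes called was thus near the background. Their median log2 change was 0.07, beside 0.06 over all genes. Changes were small: 1 motor gene changed by 2-fold or more, Kif20b. All 3 camptothecin values lay above all 3 DMSO values for 20 motor genes (40%) and below them for 13 (26%), beside 27.1% and 15.5% of all genes with 1 symbol and 24.5% and 13% of all clusters.

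**Figure D1:**
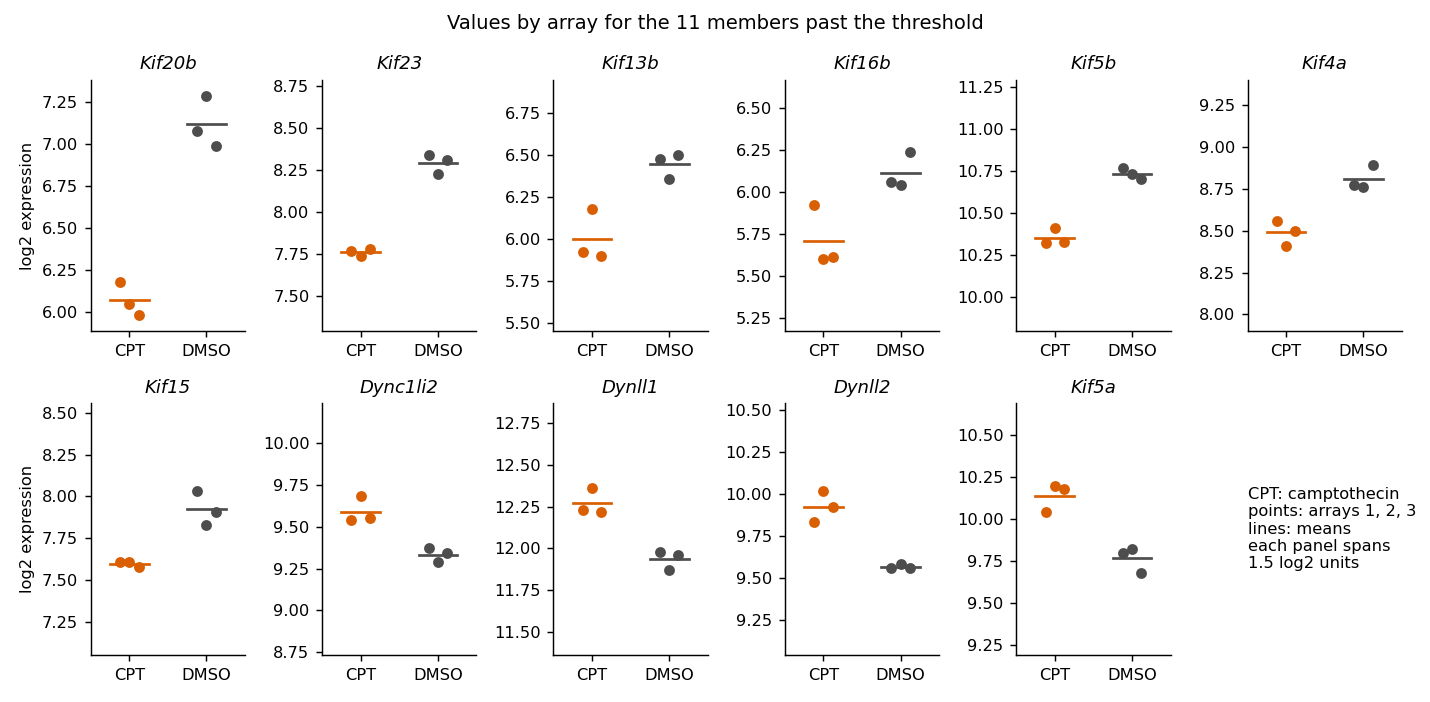
Log2 expression (vertical axis) on each array for the 11 motor genes that passed the threshold, ordered from the largest fall to the largest rise; points are arrays, lines are means, camptothecin (CPT) is left of DMSO, and every panel spans 1.5 log2 units. The treatments do not overlap in any panel, and camptothecin replicate 2, the middle point, is the highest camptothecin array in the 4 panels of genes that rose.

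By kind of subunit the counts were as follows. Among the 29 Kif genes 7 fell and 1 rose, with a median change of -0.06, where 9.35% of all genes with 1 symbol fell and 11.3% rose. Among the 17 dynein chains 3 rose and 0 fell by limma (7 higher and 2 lower at an unadjusted p under 0.05), with a median of 0.13 that was -0.12 with centring on ribosomal protein genes. The 4 light chain genes Klc1 to Klc4 had changes from 0.16 to 0.34, and 0 passed (3 higher at an unadjusted p under 0.05). These medians are descriptions, and the difference between the kinds was not tested. With each array centred on its ribosomal protein genes, which lowers the median change of all clusters by 0.25, the order of the kinds stayed but the medians were -0.31 for Kif, -0.03 for Klc and -0.12 for dynein genes. In that scaling 18 Kif genes and 4 dynein genes fell and 0 motor genes rose by limma (0 also at an unadjusted p under 0.05). Over all clusters 7.98% of the calls were higher in that scaling, beside 56% as deposited. The share of all genes that fell in it was not counted, so these counts have no background beside them.

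**Figure D2:**
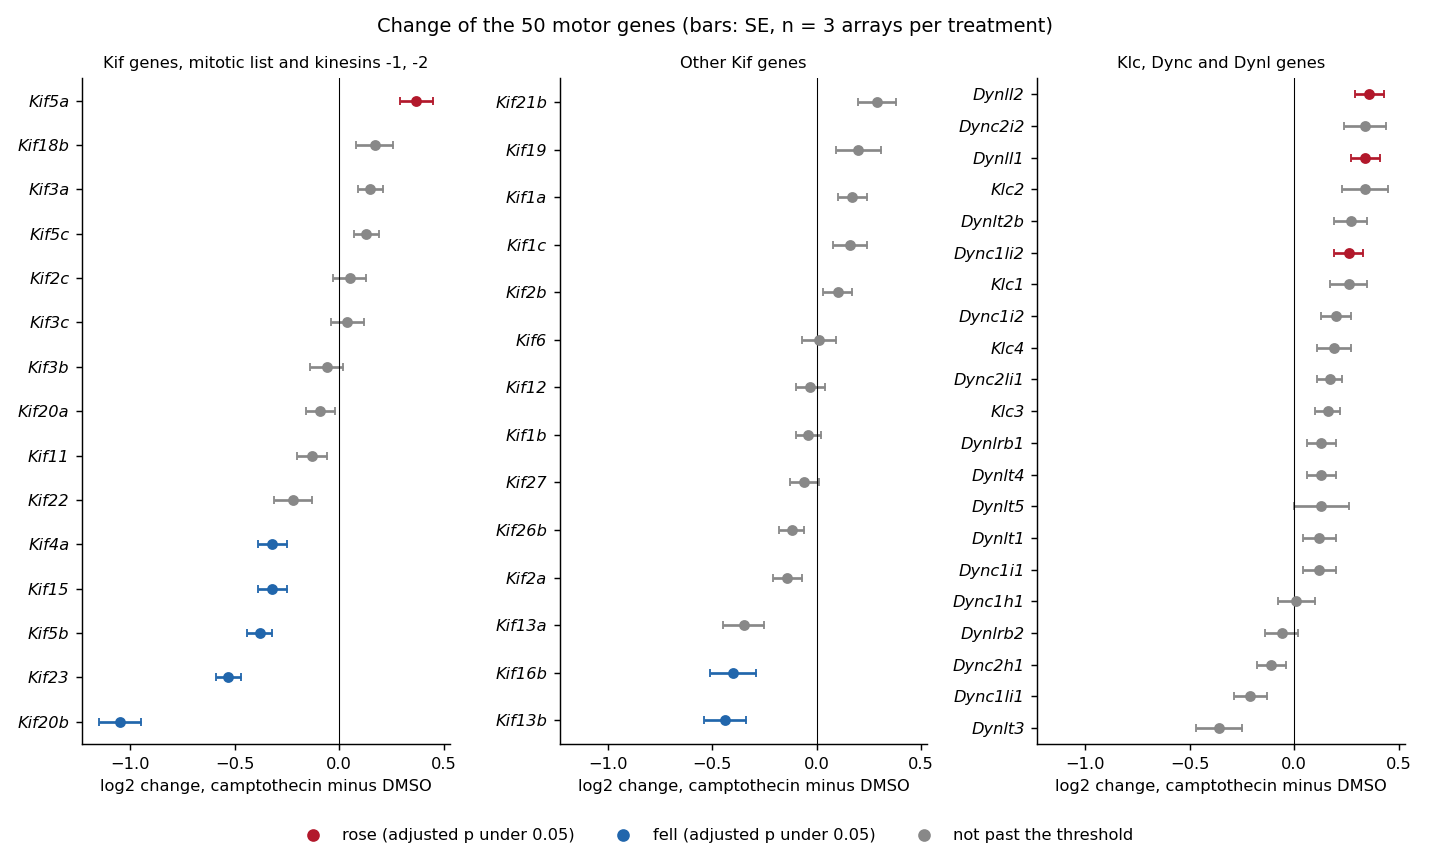
Log2 change (horizontal axis, camptothecin minus DMSO) of each of the 50 motor genes, in 3 panels of related genes, with points for the estimate and bars for its SE (n = 3 arrays per treatment). Red genes rose, blue genes fell and grey genes did not pass the threshold; Kif20b stands apart at -1.05, and the 4 red genes lie between 0.26 and 0.37, a rise that 0 of them kept by limma with arrays centred on ribosomal protein genes (changes of 0.01 to 0.12).

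The largest change was in Kif20b, a kinesin-6 of the midbody that in mouse is also needed for normal axon growth. Its log2 values were 6.18, 6.05 and 5.98 with camptothecin, against 7.08, 7.29 and 6.99 with DMSO. The groups were separated by more than their own spread, and Kif20b was 2.07-fold lower (log2 change -1.05, SE 0.10, adjusted p = 0.000839). Kif23, the kinesin-6 of the centralspindlin complex that organises the central spindle, had 7.77, 7.74 and 7.78 with camptothecin, against 8.34, 8.23 and 8.31 with DMSO. The 3 camptothecin arrays nearly coincided, 1.44-fold below DMSO (-0.53, SE 0.06, adjusted p = 0.00247). The third kinesin-6 gene, Kif20a, a close relative of Kif20b that acts in late mitosis, did not pass (6.79 ± 0.08 with camptothecin and 6.88 ± 0.02 with DMSO, SD, n = 3 each; adjusted p = 0.449). Within each array the difference Kif20b minus Kif20a was lower with camptothecin by 0.96 on the log2 scale, without overlap.

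Another 2 spindle motors fell by less. Kif15, a kinesin-12 that helps keep spindle poles apart, had 7.61, 7.61 and 7.58 with camptothecin, against 8.03, 7.83 and 7.91 with DMSO (-0.32, SE 0.07, adjusted p = 0.0251). Kif4a, a chromosome-bound kinesin-4, had 8.56, 8.41 and 8.50 with camptothecin, against 8.77, 8.76 and 8.89 with DMSO (-0.32, SE 0.07, adjusted p = 0.0279). Neither group pair overlapped, but Kif15 lost its call in 7 of 16 alternative settings and Kif4a in 8, most of them with 1 array left out.

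The other spindle motors did not pass the test. Kif22, a chromosome-bound kinesin-10, changed by -0.22, and Kif11, the kinesin-5 that pushes spindle poles apart, by -0.13. The microtubule-shortening Kif2c had 0.05 and the kinesin-8 Kif18b 0.17. In all, 4 of 9 measured mitotic kinesins fell and 0 rose by limma (0 higher also at an unadjusted p under 0.05), with a median of -0.22. Over all genes with 1 symbol 9.35% fell and 11.3% rose. Of the 18 dividing-cell markers 3 rose (Pcna, Prc1 and Rrm2) and 0 fell by limma (2 lower at an unadjusted p under 0.05). Their mean level was 8.20 to 8.32 per array with camptothecin and 8.16 to 8.20 with DMSO, while that of the 9 mitotic kinesins was 7.26 to 7.31 with camptothecin and 7.54 to 7.58 with DMSO. The median gene span was 28.5 kb for these kinesins and 15.7 kb for the markers, and its part in this difference was not tested.

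The 250 bases before the annotated start are shown for the 4 mitotic kinesins that fell and for Kif5b, whose paralogue moved the other way, so that the promoters of members that moved together can be read side by side. The sequences are from RefSeq on the rat assembly GRCr8, written 5′ to 3′ on the strand of the gene. Capitals mark, on either strand, the cell cycle homology core TTTGAA, the CCAAT box CCAAT, the GC box GGGCGG, the TATA core TATAAA and the cyclic AMP response element TGACGTCA. Kif20b lies at chr1:241840766-241841015 (+ strand), Kif23 at chr8:71320585-71320834 (- strand), Kif15 at chr8:131479154-131479403 (+ strand), Kif4a at chrX:69761633-69761882 (+ strand) and Kif5b at chr17:56185136-56185385 (+ strand).
Kif20b: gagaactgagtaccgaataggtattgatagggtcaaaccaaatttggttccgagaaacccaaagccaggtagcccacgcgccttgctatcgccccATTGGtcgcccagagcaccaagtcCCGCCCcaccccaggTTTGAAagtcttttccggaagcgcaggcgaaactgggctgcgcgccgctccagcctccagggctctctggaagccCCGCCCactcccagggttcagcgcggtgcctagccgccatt
Kif23: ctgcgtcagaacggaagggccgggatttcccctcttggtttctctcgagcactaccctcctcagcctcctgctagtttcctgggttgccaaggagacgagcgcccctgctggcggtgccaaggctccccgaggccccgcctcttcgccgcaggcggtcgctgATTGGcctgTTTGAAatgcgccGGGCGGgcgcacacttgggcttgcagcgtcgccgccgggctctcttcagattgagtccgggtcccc
Kif15: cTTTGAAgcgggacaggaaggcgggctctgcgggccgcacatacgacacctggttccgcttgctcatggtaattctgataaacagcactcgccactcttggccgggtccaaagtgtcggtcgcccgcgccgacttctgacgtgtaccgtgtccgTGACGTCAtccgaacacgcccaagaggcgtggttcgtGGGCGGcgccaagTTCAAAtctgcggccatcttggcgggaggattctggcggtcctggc
Kif4a: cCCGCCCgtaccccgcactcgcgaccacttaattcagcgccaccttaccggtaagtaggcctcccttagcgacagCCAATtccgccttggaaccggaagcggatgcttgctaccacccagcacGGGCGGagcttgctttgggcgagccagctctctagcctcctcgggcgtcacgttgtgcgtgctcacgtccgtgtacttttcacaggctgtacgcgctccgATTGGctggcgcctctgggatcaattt
Kif5b: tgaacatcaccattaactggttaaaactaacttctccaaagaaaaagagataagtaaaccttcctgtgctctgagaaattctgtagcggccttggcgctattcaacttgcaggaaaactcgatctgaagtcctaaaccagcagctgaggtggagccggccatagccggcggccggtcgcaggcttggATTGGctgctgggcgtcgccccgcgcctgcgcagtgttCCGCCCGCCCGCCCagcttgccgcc

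Kif20b and Kif23, the pair of mitotic kinesins with the largest falls, each held 1 CCAAT box and 1 TTTGAA downstream of it. In Kif20b these began 155 and 116 bases before the start, and in Kif23 88 and 79 bases before it. Kif15 held 2 TTTGAA and no CCAAT, Kif4a 2 CCAAT and no TTTGAA, and Kif5b 1 CCAAT and 3 overlapping GC boxes. TTTGAA occurred in 16% of 27457 rat promoter windows of the same length, in 6 of 41 motor genes with a window (14.6%) and in 4 of 9 mitotic kinesins (Kif15, Kif20b, Kif22 and Kif23), of which Kif22 did not pass the test. CCAAT occurred in 34.3% of all windows, in 18 of those 41 (43.9%) and in 6 of those 9. Among these 6 were Kif11, Kif20a and Kif22, which did not pass the test. Kif22 thus held both motifs, as Kif20b and Kif23 did. GGGCGG occurred in 32.4% of all windows and in 29 of the 41 (70.7%). TATAAA was in 13.1% of all windows and in 4 of those 41, and TGACGTCA in 1.7% of all windows and in 3 of them. None of these 5 windows held TATAAA. These are letter matches only.

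Kinesin-1, the main outward motor of axons, is built from heavy chains encoded by Kif5a, Kif5b and Kif5c and from the light chains that bind cargo. Its heavy chain genes moved apart. Kif5a, the neuronal form, had 10.04, 10.20 and 10.18 with camptothecin, against 9.80, 9.82 and 9.68 with DMSO, and rose 1.29-fold (0.37, SE 0.08, adjusted p = 0.0191). Kif5b, the form made in most tissues, had 10.32, 10.41 and 10.33 with camptothecin, against 10.77, 10.73 and 10.70 with DMSO. It was 1.3-fold lower (-0.38, SE 0.06, adjusted p = 0.00879). For both genes the treatments were fully separated, in opposite directions. Kif5c, which is also enriched in neurons, had 10.69, 10.77 and 10.69 with camptothecin, against 10.59, 10.59 and 10.59 with DMSO (0.13, SE 0.06, adjusted p = 0.22). Its values did not overlap, but the change did not pass the test and was -0.12 with centring on ribosomal protein genes.

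A difference between paralogues within an array does not change when a whole array is shifted by a constant. The difference Kif5a minus Kif5b was -0.28, -0.20 and -0.16 with camptothecin, against -0.96, -0.91 and -1.01 with DMSO, a shift of 0.75 or 1.68-fold. Only the shift can be read, since probes of different genes are not on 1 scale. Kif5c minus Kif5b shifted by 0.51 and Kif5a minus Kif5c by 0.24. Of 8 pairs of related subunits compared, chosen after their values were seen, 5 were fully separated. Each of the 5 had an exact permutation p of 0.1 (two-sided), the smallest that 3 arrays against 3 allow. Benjamini-Hochberg adjustment over the 8 pairs gave 0.16. Because of how the pairs were chosen, these p-values are descriptions and not tests. The Kif5 pairs among the 5 share genes, and Kif5a minus Kif5c follows from the other Kif5 differences, so the 5 are not separate results. The call of Kif5b was kept in all 16 alternatives and that of Kif5a was lost in 8. Without any 1 array except camptothecin replicate 1, the adjusted p of Kif5a was 0.0509 to 0.0675, with changes of 0.33 to 0.40.

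**Figure D3:**
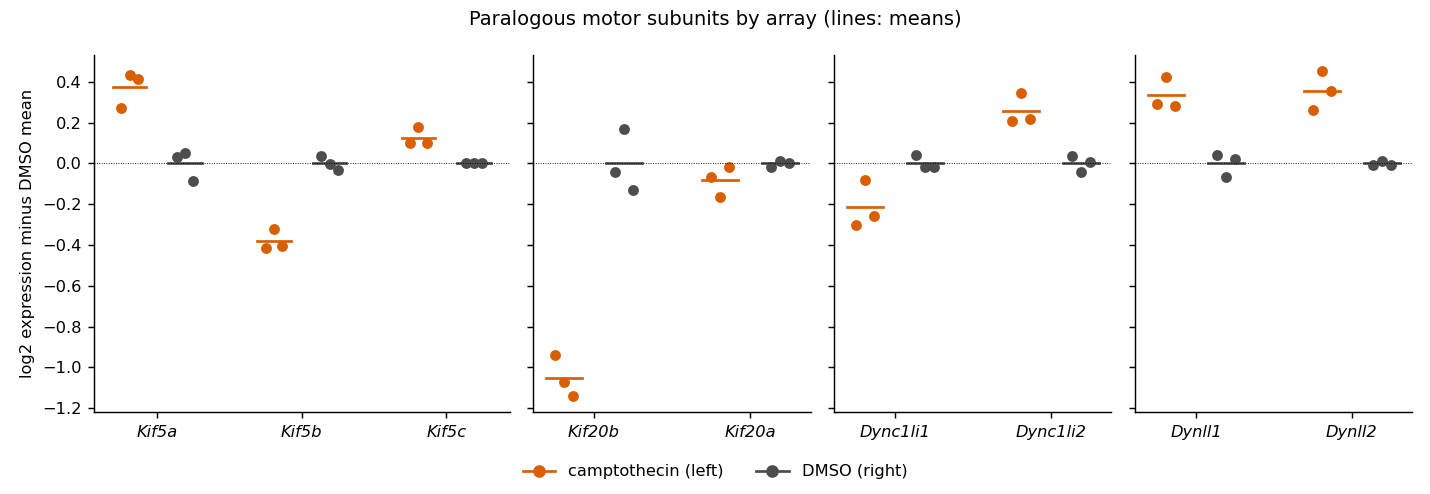
Log2 expression of related motor subunits on each array, minus the mean of the 3 DMSO arrays of that gene (vertical axis); points are arrays and lines are treatment means, camptothecin to the left of DMSO for each gene. Kif5a lies above DMSO and Kif5b below it, Kif20b lies far below and Kif20a near DMSO, and Dynll1 and Dynll2 shift by similar amounts.

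The light chain genes did not pass the test. For 3 of the 4 all camptothecin values lay above all DMSO values, as they did for 27.1% of all genes with 1 symbol. Klc2 had 8.29, 8.67 and 8.56 with camptothecin, against 8.21, 8.22 and 8.07 with DMSO (0.34, SE 0.11, adjusted p = 0.0764). Klc1 had 10.44, 10.69 and 10.53 with camptothecin, against 10.32, 10.36 and 10.21 with DMSO (0.26, SE 0.09, adjusted p = 0.0883). For both, camptothecin replicate 2 was the highest array. With 1 array left out Klc2 ran from 0.26 (without camptothecin replicate 2) to 0.45 (without camptothecin replicate 1, where it passed by limma, adjusted p = 0.0243), and Klc1 from 0.19 to 0.31. Klc3 and Klc4 had 0.16 and 0.19 as deposited. With centring on ribosomal protein genes Klc1 had 0.01, Klc2 0.09, Klc3 -0.09 and Klc4 -0.06.

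Among kinesin-3 genes, whose products carry vesicles and endosomes, the 3 with the longest spans were the lowest. Kif13b, a motor for Dlg1-linked cargo, had 5.92, 6.18 and 5.90 with camptothecin, against 6.48, 6.36 and 6.50 with DMSO (-0.44, SE 0.10, adjusted p = 0.0215). Kif16b, a motor of early endosomes, had 5.92, 5.60 and 5.61 with camptothecin, against 6.06, 6.04 and 6.24 with DMSO (-0.40, SE 0.11, adjusted p = 0.0453). Both were below the median brightness of all clusters, and both lost their call in most fits with 1 array left out (adjusted p up to 0.0748 for Kif13b and 0.132 for Kif16b). Kif13a, which moves recycling endosomes, had 7.26, 7.44 and 7.19 with camptothecin, against 7.64, 7.77 and 7.52 with DMSO. Its change of -0.35 (SE 0.10) lay just outside the threshold (adjusted p = 0.0524), and it passed in 9 of 16 alternatives. Kif13b minus Kif13a shifted by -0.09, within the spread of the arrays (exact permutation p = 0.5).

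The kinesin-3 genes best known from axons did not pass. Kif1a, the motor of synaptic vesicle precursors, averaged 9.80 ± 0.05 with camptothecin and 9.64 ± 0.05 with DMSO (SD, n = 3 each; change 0.17, SE 0.07). Kif1b, which moves mitochondria and synaptic vesicle precursors, averaged 11.05 ± 0.05 with camptothecin and 11.09 ± 0.02 with DMSO (-0.04, SE 0.06). Kif1c had 0.16. The heterotrimeric kinesin-2 genes, which serve cilia and axons, had 0.15 for Kif3a, -0.06 for Kif3b and 0.04 for Kif3c, and 0 of 3 passed by limma (Kif3a at an unadjusted p under 0.05). Kif21b, a neuronal kinesin-4, had 0.29 (SE 0.09, adjusted p = 0.0589), and Kif2a, which shortens microtubules and trims axon branches in mouse, had -0.14 (SE 0.07, adjusted p = 0.248). The other Kif genes, Kif2b, Kif6, Kif12, Kif19, Kif26b and Kif27, had changes from -0.12 to 0.20 and did not pass, and all but Kif27 were below the median brightness.

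Cytoplasmic dynein-1 is a large complex of a motor heavy chain with intermediate, light intermediate and light chains. Its light chain genes Dynll1 and Dynll2, whose near-identical products also bind many proteins outside dynein, rose by like amounts. Dynll1 had 12.23, 12.36 and 12.22 with camptothecin, against 11.98, 11.87 and 11.96 with DMSO (1.26-fold; 0.34, SE 0.07, adjusted p = 0.0215). Dynll2 had 9.83, 10.02 and 9.92 with camptothecin, against 9.56, 9.58 and 9.56 with DMSO (1.28-fold; 0.36, SE 0.07, adjusted p = 0.0172). Dynll2 minus Dynll1 shifted by 0.02, and whether their probes read each other's RNA was not tested. Each lost its call in 6 of 16 alternatives, among them each fit without a DMSO array (0.30 to 0.36, adjusted p 0.0563 to 0.0827).

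The light intermediate chains, which link dynein to its adaptors, differed. Dync1li2 had 9.54, 9.68 and 9.55 with camptothecin, against 9.37, 9.29 and 9.34 with DMSO, and rose 1.2-fold (0.26, SE 0.07, adjusted p = 0.0453). That call is marginal: it was lost in 10 of 16 alternatives, including all 6 fits with an array left out (adjusted p 0.0701 to 0.149). Dync1li1 had 10.71, 10.93 and 10.75 with camptothecin, against 11.05, 10.99 and 10.99 with DMSO (-0.21, SE 0.08, adjusted p = 0.112). Dync1li2 minus Dync1li1 was -1.16, -1.25 and -1.20 with camptothecin, against -1.68, -1.71 and -1.65 with DMSO, a shift of 0.47.

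The motor subunit of dynein did not pass. Dync1h1, the heavy chain, had 10.52, 10.27 and 10.49 with camptothecin, against 10.31, 10.45 and 10.50 with DMSO (0.01, SE 0.09, adjusted p = 0.979), with the treatments interleaved. Of the intermediate chains, which hold the complex together, Dync1i2 had 0.20 (SE 0.07, adjusted p = 0.0978) and the dimmer Dync1i1 0.12 (SE 0.08, adjusted p = 0.381). Dynlt3, a light chain of the Tctex type, had the lowest log2 change of the dynein genes (-0.36, SE 0.11, adjusted p = 0.0722). Its values were 8.20, 8.53 and 8.16 with camptothecin, against 8.75, 8.63 and 8.58 with DMSO. Camptothecin replicate 2 stood apart from the other 2 there, and without it Dynlt3 passed, at -0.48 (adjusted p = 0.017 by limma). Dynlt1 had 0.12 and the roadblock chain Dynlrb1 0.13.

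Dynein-2 brings cargo back along cilia. Its chains Dync2i2 (0.34, SE 0.10, adjusted p = 0.055), Dync2li1 (0.17, SE 0.06) and Dync2h1 (-0.11, SE 0.07) did not pass, nor did its light chain gene Dynlt2b (0.27, SE 0.08, adjusted p = 0.0679). The treatments did not overlap for Dync2i2, Dync2li1 and Dynlt2b. Dynlrb2, Dynlt4 and Dynlt5 had changes from -0.06 to 0.13 and were all below the median brightness.

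Genes that work with the motors were read from a list of 47 dynactin subunits, dynein regulators, adaptors and activators, of which 40 were measured. Of these 6 rose (15%) and 4 fell (10%), 25% in all, beside 11.3%, 9.35% and 20.7% of all genes with 1 symbol. The treatments did not overlap for 14 higher (35%) and 8 lower (20%), beside 27.1% and 15.5% of those genes. In dynactin, which couples dynein to cargo, Dctn1 rose by 0.47 (SE 0.09, adjusted p = 0.0144), Dctn3 by 0.44 and Dctn6 by 0.23 (-0.02 with centring on ribosomal protein genes), and Ndel1, a dynein regulator, fell by 0.26. By limma Ndel1 lost its call in 8 of 16 alternatives, including all 6 fits with an array left out (adjusted p 0.0511 to 0.0932), and Dctn6 in 10, again with all 6 (0.0757 to 0.146). Dctn1 lost its call in 4 of the 16 and Dctn3 in 2, each with ribosomal centring among them (changes of 0.22 and 0.19). The dynactin subunit gene Dctn5 went the other way, at -0.25, with all camptothecin values below all DMSO values. It lay just outside the threshold (adjusted p = 0.0501 by limma). Pafah1b1, the Lis1 gene, had -0.13 and did not pass. Of the 15 dynactin and dynein regulator genes 9 had changes above 0 and 6 below. The mitochondrial Miro adaptors also moved apart. Unlike Kif5a and Kif5b (37.1 and 37.6 kb) they differ in gene span, 5.8 kb for Rhot2 and 75 kb for Rhot1. The part of span in either split was not tested. Rhot2 had 7.91, 8.15 and 7.96 with camptothecin, against 7.52, 7.50 and 7.38 with DMSO (0.54, SE 0.09, adjusted p = 0.00743). Rhot1 had 7.59, 7.68 and 7.61 with camptothecin, against 8.29, 8.17 and 8.27 with DMSO (-0.62, SE 0.07, adjusted p = 0.00161). Both calls held in all 16 alternatives. The kinesin-1 adaptors Mapk8ip1 and Mapk8ip3 rose by 0.38 each (0.13 and not past with centring on ribosomal protein genes), and Mapk8ip1 lost its call in 8 of 16 alternatives. Grip1, an adaptor that steers Kif5 to dendrites, fell by 0.52 and the centrosomal dynein adaptor Nin by 0.48, and both calls held in all 16.

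The rule used names only, so gene length is a separate property of the members. Spans were taken from GRCr8, which all 50 matched by gene identifier. Of the 10 motor genes of 100 kb or more 3 fell and 0 rose by limma, with a median change of -0.11, beside 34.9% falling, 1.84% rising and a median of -0.14 among all 1632 such genes. Of the 18 from 30 kb to under 100 kb 3 fell (16.7%) and 2 rose (11.1%), with a median of 0.02, beside 16.2% falling, 5.43% rising and a median of 0.00 among all such genes. Of the 22 under 30 kb 1 fell (4.55%) and 2 rose (9.09%), with a median of 0.13, beside 2.34% falling, 15.2% rising and a median of 0.10 among all genes that short. Ranked across genes, span and change had a Spearman's rho of -0.36 over the 50 motor genes, beside -0.31 over all 14480 genes with a span. Genes on the same arrays are not independent replicates, so these are descriptions.

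Single members departed from that order. Kif5a and Kif5b have spans of 37.1 and 37.6 kb and changed in opposite directions. Kif23 spans 28.5 kb and fell, and Kif20b, with the largest fall, spans 55.6 kb. Among the longest members, Kif26b (406 kb) had -0.12, Dync1i1 (313 kb) 0.12 and Kif6 (297 kb) 0.01, and none of these passed; all were below the median brightness.

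**Figure D4:**
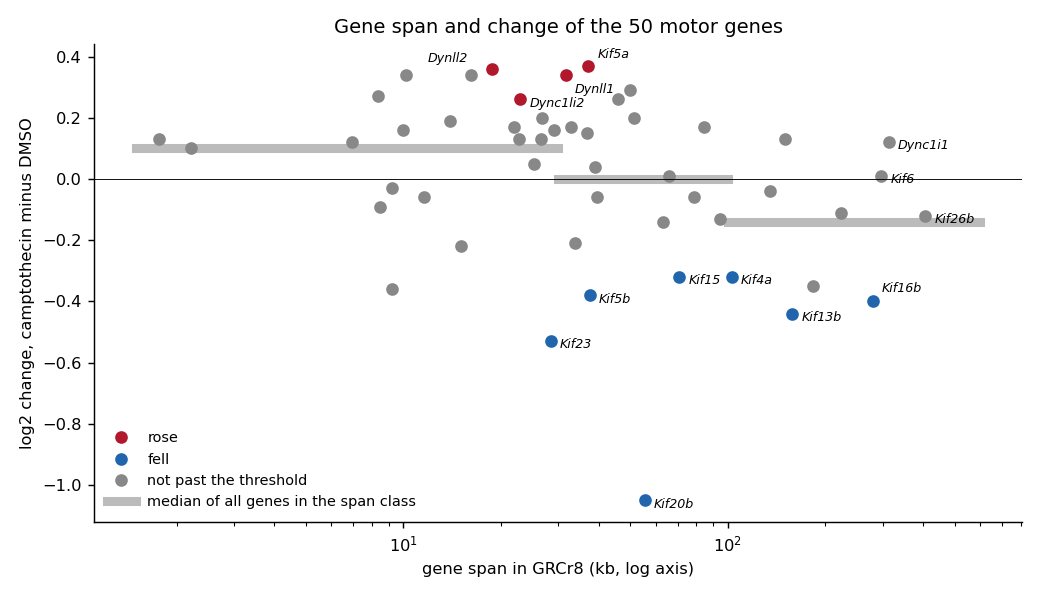
Gene span in kb (horizontal, log axis) against log2 change, camptothecin minus DMSO (vertical), for the 50 motor genes; red points rose, blue fell, grey did not pass, and grey bars give the median change of all genes in 3 span classes. Kif5a and Kif5b sit at nearly the same span on opposite sides of 0, and Kif20b lies far below the median of all genes in its class.

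The arrays also differed within a treatment. Camptothecin replicate 2 was the highest camptothecin array for 27 of 50 motor genes and for 49.6% of all genes, and for all 4 motor genes that rose. The spread within a treatment was otherwise small, with a median SD over the motor genes of 0.08 with camptothecin and 0.06 with DMSO. Motor genes were brighter than most: 22% lay below the median of all clusters, beside 41.6% of all genes.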

How the data were processed

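The deposited log2 expression values, 1 per transcript cluster and array, were used as the authors gave them. Per the submitters' processing notes RMA and oligo were used; their versions and the build behind the probe sets were not given in the sources used here. Per the labels' protocols, biotinylated cDNA from 1 microg of total RNA was hybridised to Rat Gene 1.0ST arrays. The platform annotation gave 15310 clusters 1 symbol, 323 several and 13581 none; only the first were named, each gene by its cluster with the highest mean.

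The test was limma 3.58.1 (R 4.3.3), lmFit and eBayes, camptothecin minus DMSO, two-sided, Benjamini-Hochberg adjusted over all 29214 clusters, threshold 0.05, with no filter; it was tested on simulated data. Errors are limma's SE unless marked SD. Precision is limited by the number of arrays. The rule named every member past the threshold, a set of well-known axonal and mitotic members whatever their result, and cofactor and track genes past it; Kif17 and Kif21a of that set were not analysed here. Other genes, such as Kif13a, the dynein-2 chains, Dctn5, Pafah1b1 and Stmn2, were added after their values were seen. The members and lists were chosen with earlier results of these data known. Same-numbered arrays were not treated as pairs. Alternatives were other scalings, a filter that drops clusters below the median mean (dim clusters), only clusters with 1 symbol, the mean over a gene's clusters, trend and robust variance, array weights, the replicate number as a block, a stricter threshold and each array left out.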

Additional observations from a re-analysis of the deposited data

How the results depend on the processing

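Of the 11 calls 3 (Kif20b, Kif23 and Kif5b) were kept in all 16 alternatives; no called motor gene changed sign, and 23 of the 39 others passed in at least 1. Motor genes that rose were 4 as reported, 8 with 1-symbol clusters only, 11 without dim clusters, 11 under eBayes with trend and robust and 7 after a second quantile normalization. The replicate block left 1, ribosomal centring 0 (0 by limma at an unadjusted p under 0.05) and a threshold of 0.01 also 0 (14 unadjusted). Leaving out 1 array gave 0 to 4: 0 without DMSO replicate 1 or 2 (12 and 10 unadjusted), 1 without camptothecin replicate 3 or DMSO replicate 3 and 2 without camptothecin replicate 2. Motor genes that fell were 7, against 4 with the replicate block and 3 at 0.01. Under ribosomal centring they were 22, in a scaling where 7.98% of the calls over all clusters were higher. Leaving out 1 array gave 3 to 7, the 3 when camptothecin replicate 3 or either of DMSO replicates 1 and 3 was dropped. Cofactors that rose were 6, against 10 without dim clusters, 1 at 0.01, 1 under ribosomal centring, and 2 to 6 when 1 array was dropped (2 without DMSO replicate 3). Cofactors that fell were 4, against 15 under ribosomal centring and 3 to 5 when 1 array was dropped. Same-numbered arrays deviated together at r = -0.084, 0.022 and 0.085, so the numbers were not taken to pair the arrays. Fewer clusters are tested without dim clusters and with 1-symbol clusters; why the other counts moved was not tested.

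Signs that turned belong to genes that had not passed, and to Dctn6 (-0.02 with ribosomal centring). With ribosomal centring these were Dync1h1 (-0.24), Kif6 (-0.24), Kif3c (-0.21), Kif2c (-0.20), Kif2b (-0.15), Dync1i1 (-0.13), Dynlt1 (-0.13), Dynlrb1 (-0.12), Dynlt4 (-0.12), Dynlt5 (-0.12), Kif5c (-0.12), Kif3a (-0.10), Kif1c (-0.09), Klc3 (-0.09), Kif1a (-0.08), Dync2li1 (-0.08), Kif18b (-0.07), Klc4 (-0.06), Dync1i2 (-0.05) and Kif19 (-0.05). With arrays centred on their median Dync1h1 and Kif6 had -0.06, Kif3c -0.03 and Kif2c -0.02, and with quantile normalization again Kif6 had -0.05, Dync1h1 -0.02 and Kif2c -0.01. Kif6 had -0.02 with array weights. With 1 array left out Dync1h1 ran from -0.05 to 0.08, Kif6 from -0.06 to 0.05, Kif3c from -0.03 to 0.08, Kif2c from -0.01 to 0.08, Dynlrb2 from -0.11 to 0.00 and Kif12 from -0.08 to 0.00. The share of calls that were higher over all clusters was 56% as deposited, 37.2% with median centring and 7.98% with ribosomal centring.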

Other observations

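The microtubule tracks themselves were measured through 21 of 22 listed tubulin and microtubule-associated protein genes, of which 6 rose and 0 fell by limma (9 higher and 0 lower at an unadjusted p under 0.05). Of all genes with 1 symbol 11.3% rose and 9.35% fell. The median log2 change of the 21 track genes was 0.15, beside 0.06 over all genes. Tuba4a, an alpha-tubulin whose variants are linked to human motor neuron disease, averaged 7.58 ± 0.20 with camptothecin and 6.80 ± 0.24 with DMSO (SD, n = 3 each; limma change 0.78, SE 0.15, adjusted p = 0.0129). The beta-tubulin gene Tubb4b rose by 0.47 (SE 0.07), Tuba1c by 0.37, the axonal protein gene Map1a by 0.31, Stmn3 by 0.25 and Tubb2a by 0.24. The bright neuronal genes Stmn2 (0.03), Dcx (0.05), Map2 (0.05) and Map1b (0.07) did not pass. Under ribosomal centring 1 of the 21 rose and 3 fell, and 16 had values below 0.

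Of 14 measured relatives outside the name rule, C-terminal kinesins and axonemal dyneins, 1 rose and 0 fell by limma (1 higher and 1 lower at an unadjusted p under 0.05). Dnai4, an axonemal dynein chain gene, rose by 0.30 (SE 0.07, adjusted p = 0.0331), and Kifc1, a spindle motor, had -0.25 (SE 0.08, adjusted p = 0.0823). Below the median brightness were 9 of the 14.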
